A study of Mus musculus with 28 samples.

Results

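The 8 genes described here encode enzymes that make phosphatidylcholine and phosphatidylethanolamine, the main phospholipids of cell membranes: Pcyt1a, Pcyt2, Chka, Chkb, Chpt1, Cept1, Pemt and Etnk1. They are 8 of the 25719 genes counted in tail tendon fascicles of mice. The set was selected on function and on 1 measured value: Pcyt1a was chosen by its higher counts in early Fosl2(Tg) mice than in early WT mice, and its partner enzymes were added with it. The early difference of Pcyt1a is therefore given as a description without a test, and tests are given for the established mice, whose values are not part of that rule. The members and comparisons were, however, chosen with earlier results of these data known.

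Bulk RNA-seq was run on tail tendon fascicle homogenates of 28 C57BL/6 mice, a model of systemic sclerosis and its controls. The early stage, 6 to 8 weeks of age, held 7 WT and 8 Fosl2(Tg) mice, and the established stage, older than 14 weeks, held 6 WT and 7 Fosl2(Tg) mice. Fosl2(Tg) mice carry a vector with murine Fosl2 (exons 1 to 4 with their introns) and eGFP, driven by the H2Kb major histocompatibility complex class I promoter and inserted at random, and the WT controls are non-transgenic mice of the same breeding. No treatment was applied. Sex ran with stage: the 15 early mice were males, and the 13 established mice were 11 females and 2 males (replicate 5 of each genotype), so stage, age and sex cannot be told apart. The insertion site of the vector is not given in the sources used here, and the Fosl2 count adds reads of the native gene and the vector: it spanned 63.4 to 156 CPM (the reads of a gene scaled to the size of its library) in early Fosl2(Tg) against 58.8 to 136 in early WT, and 121 to 160 against 78.1 to 169 in the established mice, overlapping at both stages. Libraries held between 9645598 and 66894396 counted reads, with group medians from 16638405 (established Fosl2(Tg)) to 26998780.5 (established WT).

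Cells build phosphatidylcholine mainly by the CDP-choline or Kennedy pathway. A kinase phosphorylates choline (Chka, Chkb), a CTP-using enzyme turns phosphocholine into CDP-choline in the step that usually limits the rate (Pcyt1a), and a transferase joins it to diacylglycerol (Chpt1 in the Golgi, Cept1 in the endoplasmic reticulum). A parallel arm builds phosphatidylethanolamine through the ethanolamine kinase Etnk1, then Pcyt2 (the counterpart of Pcyt1a) and, at its last step, Cept1. Pemt, known mostly from liver, methylates phosphatidylethanolamine to phosphatidylcholine. Fosl2 is a subunit of the AP-1 transcription factor, which binds sites such as TGAGTCA on DNA. The search below used TGANTCA with any base at N, a looser string.

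Promoter sequences are shown for Pcyt1a and Chpt1 because these were the only members of the 8 whose established genotypes did not overlap. Each runs for the 250 bases before the start of the canonical GENCODE M39 transcript on GRCm39, read along the gene's own strand. Pcyt1a lies on chromosome 16 (32249426 to 32294242, plus strand), with its promoter at chr16:32249176-32249425, and Chpt1 on chromosome 10 (88288348 to 88340029, minus strand), with its promoter at chr10:88340030-88340279. Capitals mark the AP-1 letters TGANTCA in Pcyt1a and the CCAAT box in Chpt1.
Pcyt1a: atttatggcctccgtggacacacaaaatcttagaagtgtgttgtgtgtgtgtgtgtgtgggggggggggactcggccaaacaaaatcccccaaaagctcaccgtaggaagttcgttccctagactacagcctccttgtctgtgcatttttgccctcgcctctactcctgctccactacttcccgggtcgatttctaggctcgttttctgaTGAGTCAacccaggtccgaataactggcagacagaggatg
Chpt1: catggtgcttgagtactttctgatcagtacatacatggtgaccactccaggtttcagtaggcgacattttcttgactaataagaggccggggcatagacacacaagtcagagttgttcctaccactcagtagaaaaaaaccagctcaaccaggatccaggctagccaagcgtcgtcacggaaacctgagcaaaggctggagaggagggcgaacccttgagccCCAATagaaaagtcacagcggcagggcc

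The AP-1 letters were searched on both strands and were found in 1 of the 8 promoters, that of Pcyt1a, with the first base at position -40 from the start. They stood in 6.33% of 25505 promoters of the same length, so a match in this window is a description of the letters only. CCAAT was in 4 of the 8 promoters and in 35.7% of all, and GGGCGG, the GC box, in 5 of the 8 and in 31.9% of all. The E-box CACGTG and the sterol regulatory element TCACNCCAC were in none of the 8, against 5.81% and 1.07% of all promoters, and none of these letter strings contains another. The 3 windows that RefSeq gives for Pcyt1a on GRCm38.p6, which run from 250 bases before to 50 after other start sites, held no TGANTCA.

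Per length of all annotated exon bases, Pcyt1a was the highest of the 8 genes in every group, and its Fosl2(Tg) values lay above its WT values at both stages. CPM per kb of exon (the union of annotated exons) is used wherever levels of different genes are compared. Pcyt1a stood at 10.8 ± 0.754 CPM per kb in early WT (SD, n = 7), 15.9 ± 1.21 in early Fosl2(Tg) (n = 8), 10.5 ± 1.09 in established WT (n = 6) and 13.8 ± 1.03 in established Fosl2(Tg) (n = 7). Chkb came next, at 9.64 ± 1.53, 9.79 ± 1.11, 9.84 ± 1.13 and 10.5 ± 0.862 CPM per kb in the same order, so that its means and those of Pcyt1a differed by less than 1 SD of Chkb in both WT groups. Chkb shares 1552 of its 3203 exon bases (48.5%) with the read-through gene Gm44502 on its own strand. How reads over those bases were counted is not given, so these levels do not settle the order of Pcyt1a and Chkb in any group. Chpt1, Etnk1 and Pcyt2 formed the middle of the order, with levels between 2.87 and 4.52 CPM per kb. In early WT these 3 genes differed from their neighbours in the order by less than 1 SD of the more variable gene, and so did Pcyt2 and Chpt1 in established Fosl2(Tg). Cept1 and Chka lay between 1.21 and 2.00, with Cept1 above Chka in both early groups and in established WT and below it in established Fosl2(Tg), by less than 1 SD of the more variable gene in every group but early WT. Pemt was the lowest in all 4 groups by this length, from 0.267 ± 0.0741 in established Fosl2(Tg) to 0.836 ± 0.275 in early Fosl2(Tg). Chpt1 was the third highest gene in 3 groups and ranked 5 of 8 in established Fosl2(Tg), where its 3.00 ± 0.416 lay below Etnk1 (3.89 ± 0.418) and Pcyt2 (3.34 ± 0.417). With the longest transcript in place of all exons, Pcyt1a and Chkb kept ranks 1 and 2 in all 4 groups. The order below them shifted: Cept1 took the lowest place from Pemt in both early groups (1.67 against 2.71 CPM per kb in early Fosl2(Tg)), Chka lay above Cept1 in every group, and Chpt1 ranked 6 in established Fosl2(Tg).

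**Figure D1:**
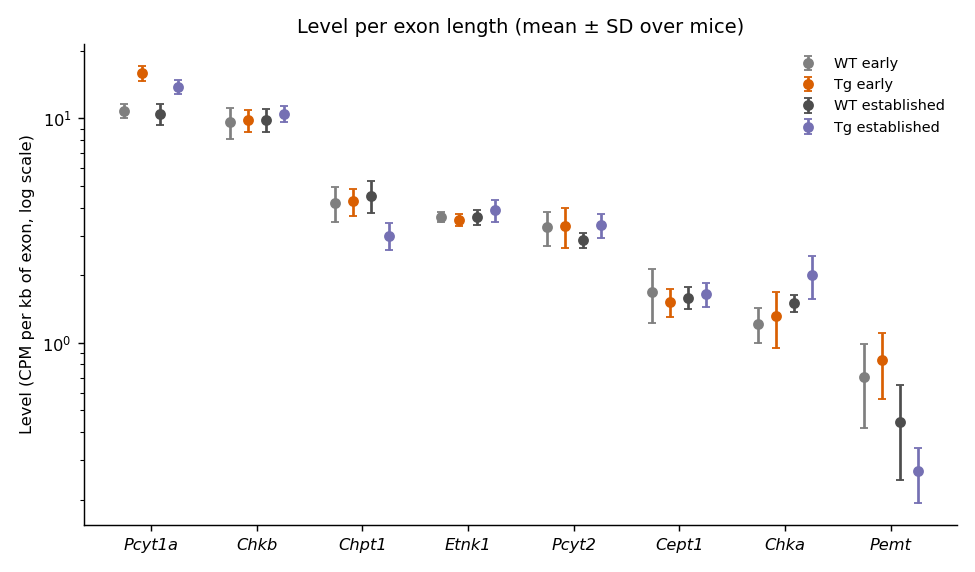
Levels of the 8 genes in the 4 groups as CPM per kb of exon on a log axis, as group means with SD bars. Pcyt1a and Chkb lie between 9.64 and 15.9, Pemt lies below 1, and the other 5 genes lie between 1.21 and 4.52. The length used for Chkb includes the exon bases it shares with Gm44502, so its order with Pcyt1a is not settled.

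In the established mice, Pcyt1a was higher and Chpt1 lower in Fosl2(Tg) than in WT tendons, while Chka, Chkb, Etnk1, Pcyt2, Cept1 and Pemt did not pass the false discovery rate (FDR) of 0.05 (edgeR quasi-likelihood test with Benjamini-Hochberg adjustment over 15862 genes). Thus 1 of the 8 genes rose and 1 fell, where 3.14% of all tested genes were called higher, 3.37% lower and 6.51% either way. At an unadjusted p under 0.05, 3 of the 8 were higher and 2 lower, against 13.5% and 13.1% of all genes. The median log2 fold change of the 8 genes was 0.10, with 6 above 0, and that of all tested genes was 0.0054.

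Pcyt1a, the enzyme of the rate-limiting CDP-choline step, gave 80.1, 89.8 and 103 CPM as lowest, median and highest values in established WT, and 107, 122 and 132 CPM in established Fosl2(Tg). All 7 Fosl2(Tg) mice were above the highest WT mouse, a separation in this direction that 1.48% of tested genes showed. The log2 fold change was 0.41 (SE 0.0809, 95% interval 0.24 to 0.58), or 1.33-fold (1.18 to 1.50), with an adjusted p of 0.0168 by edgeR. In 13 further fits that each left out 1 mouse, the log2 value stayed between 0.38 and 0.45 and the adjusted p between 0.0135 and 0.0437.

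Chpt1, the cholinephosphotransferase of the last step, gave 36.7, 38.0 and 54.3 CPM as lowest, median and highest values in established WT, and 23.9, 25.96 and 32.7 CPM in established Fosl2(Tg). On the TMM-scaled CPM every Fosl2(Tg) mouse was below every WT mouse, which held for 2.33% of tested genes in this direction. The log2 fold change was -0.59 (SE 0.111, 95% interval -0.82 to -0.35), with an adjusted p of 0.0146 by edgeR. One WT mouse, replicate 6 with 54.3 CPM, stood apart from the other 5, of which the highest had 41.3. Without it the log2 fold change was -0.49 (SE 0.0916, adjusted p = 0.0239, edgeR).

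**Figure D2:**
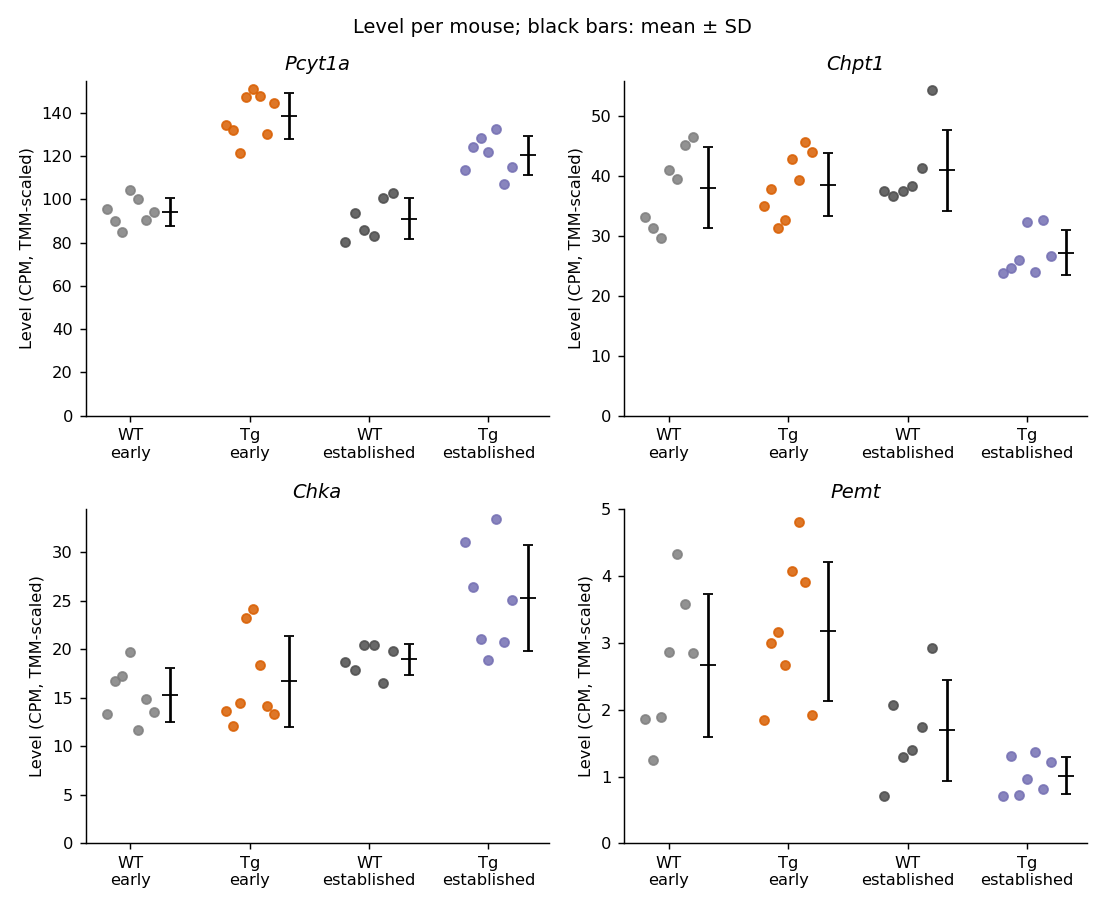
CPM of Pcyt1a, Chpt1, Chka and Pemt in each of the 28 mice, by genotype and stage, with black bars for the group mean ± SD. Pcyt1a separates the genotypes at both stages, Chpt1 only in the established mice, and Chka and Pemt overlap between genotypes at both stages.

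The kinases of the first step did not pass the FDR threshold. Chka, choline kinase alpha, gave 16.5, 19.3 and 20.5 CPM as lowest, median and highest in established WT and 18.9, 25.04 and 33.4 CPM in established Fosl2(Tg). Of the 7 Fosl2(Tg) mice, 6 lay above the highest WT mouse and 1 lay within the WT range. Its log2 fold change was 0.42 (SE 0.132, 95% interval 0.14 to 0.70), with an unadjusted p of 0.00676 and an adjusted p of 0.0713 by edgeR. The call of Chka changed with 1 mouse: without Fosl2(Tg) replicate 4, the mouse within the WT range, the log2 fold change was 0.48 and the adjusted p 0.0405. With DESeq2 it passed as well (0.41, adjusted p = 0.0365). Chkb, choline kinase beta, spanned 25.3 to 35.6 CPM in WT and 30.2 to 38.8 in Fosl2(Tg), with a log2 fold change of 0.09 (95% interval -0.09 to 0.28). Etnk1, the ethanolamine kinase, spanned 53.7 to 68.3 CPM in WT and 59.1 to 80.5 in Fosl2(Tg), with a log2 fold change of 0.11 (95% interval -0.06 to 0.28). For Chkb and Etnk1 these intervals leave out changes beyond about 0.28 on the log2 scale in either direction.

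Pcyt2, which makes CDP-ethanolamine, spanned 12.5 to 14.9 CPM in established WT and 12.9 to 18.6 CPM in established Fosl2(Tg). Its log2 fold change of 0.23 (SE 0.0905, 95% interval 0.03 to 0.42) had an unadjusted p of 0.0250 and an adjusted p of 0.132 by edgeR, and it passed with limma voom (0.25, adjusted p = 0.0359). Cept1, which serves both arms at the last step, spanned 17.1 to 22.7 CPM in WT and 15.7 to 23.7 in Fosl2(Tg), with a log2 fold change of 0.06 (SE 0.0960, 95% interval -0.14 to 0.27). Chpt1 and Cept1, which carry out the same joining step with choline, thus gave intervals that did not meet in these mice.

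Pemt was near the detection limit, at 13 to 100 reads in established WT and 11 to 62 reads in established Fosl2(Tg). Its lowest, median and highest values were 0.704, 1.57 and 2.92 CPM in WT and 0.707, 0.957 and 1.37 CPM in Fosl2(Tg). All 7 Fosl2(Tg) mice were below the WT mean, but the ranges overlapped. The log2 fold change was -0.71 (SE 0.285, 95% interval -1.32 to -0.10), with an unadjusted p of 0.0263 and an adjusted p of 0.136 by edgeR.

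**Figure D3:**
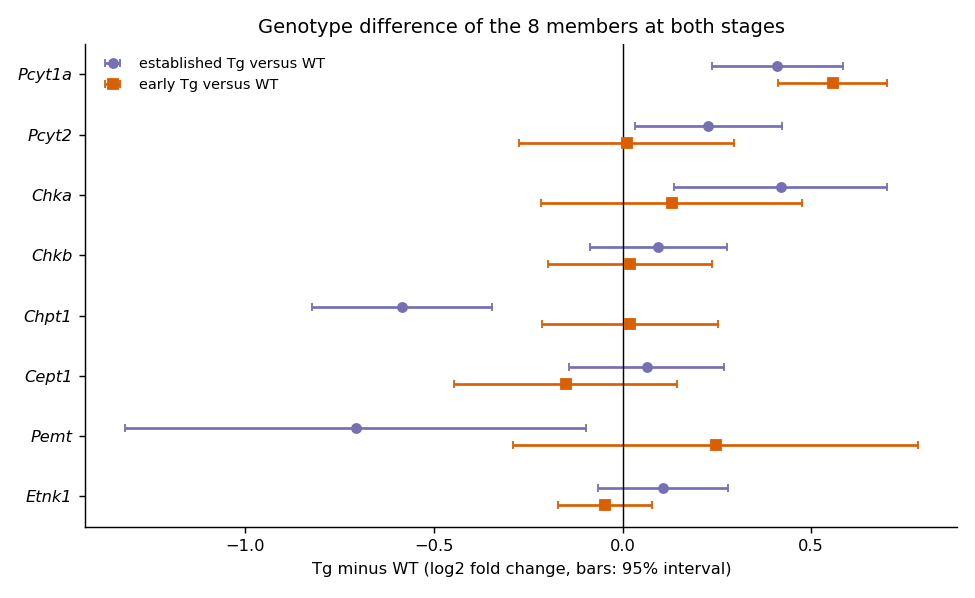
Log2 fold changes of the 8 genes, Fosl2(Tg) over WT, at the early and the established stage, with 95% intervals. In the established mice the intervals of Pcyt1a (0.24 to 0.58), Chka (0.14 to 0.70) and Pcyt2 (0.03 to 0.42) lie above 0 and those of Chpt1 (-0.82 to -0.35) and Pemt (-1.32 to -0.10) below it, before adjustment over all genes. The early value of Pcyt1a (0.56) is the one that chose the set.

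In the early mice, Pcyt1a, the value that chose the set, gave 84.96, 94.2 and 104 CPM as lowest, median and highest in WT and 122, 139.5 and 151 CPM in Fosl2(Tg). All 8 Fosl2(Tg) mice were above all 7 WT mice, and the log2 fold change was 0.56 (SE 0.0689, 95% interval 0.41 to 0.70). Of the 15138 genes tested in the early mice, 0.0396% (6 genes) passed the FDR threshold, 11 with same-numbered mice of the 2 genotypes as a block, and 6.06% had an unadjusted p under 0.05. Pcyt1a was the 1 gene of the 15138 (0.00661%) whose early Fosl2(Tg) values all lay above the early WT values. Over all 28 mice it was likewise the 1 gene of 16082 (0.00622%) whose every Fosl2(Tg) mouse exceeded every WT mouse, and 0% of genes lay below in the same way. Since Pcyt1a was chosen by this difference, these shares describe the choice, and they rest on the TMM scaling.

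The other 7 genes overlapped between the early genotypes. Chpt1 gave 29.7, 39.5 and 46.5 CPM as lowest, median and highest in early WT and 31.4, 38.6 and 45.6 CPM in early Fosl2(Tg), and its log2 fold change was 0.02 (95% interval -0.21 to 0.25). Chka gave 11.7, 14.9 and 19.7 CPM in early WT and 12.1, 14.3 and 24.1 CPM in early Fosl2(Tg), a log2 fold change of 0.13 (SE 0.164). Pemt gave 1.25, 2.85 and 4.34 CPM in early WT and 1.85, 3.08 and 4.81 CPM in early Fosl2(Tg), a log2 fold change of 0.25 (95% interval -0.29 to 0.78). The remaining log2 fold changes were 0.01 for Pcyt2, 0.02 for Chkb, -0.05 for Etnk1 and -0.15 for Cept1, each within its 95% interval of 0.

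Set side by side, the established genotype difference minus the early one was -0.61 for Chpt1 (SE 0.164) and -0.96 for Pemt (SE 0.393) on the log2 scale, and -0.15 for Pcyt1a (SE 0.0984). For the other 5 genes it lay between 0.07 (Chkb) and 0.28 (Chka, SE 0.216). These differences were not tested, because the early contrast took part in the choice of the set.

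Between stages, Chka, Chpt1 and Pemt differed within Fosl2(Tg) mice, and none of the 7 genes other than Pcyt1a passed the FDR threshold within WT mice. In Fosl2(Tg) mice, Chka was higher in the established than in the early stage (log2 fold change 0.60, SE 0.172, adjusted p = 0.00964), where 24.2% of all genes were called higher. Chpt1 was lower (-0.50, SE 0.0998, adjusted p = 0.000734), where 22.5% of all genes were called lower. Pemt was lower too (-1.64, SE 0.236, adjusted p = 5.26e-05), and its highest established value, 1.37 CPM, was below its lowest early value, 1.85 CPM, a separation that 8.29% of genes showed in this direction. All these adjusted p-values are from edgeR. The 3 of 7 calls stand beside these shares of all genes, which together came near the share among the members.

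In WT mice, 0 of the 7 genes passed, by edgeR as by DESeq2, against 4.74% of all genes, and 2 had an unadjusted p under 0.05 by edgeR, against 22% of all genes. Those were Chka (0.31, SE 0.115, unadjusted p = 0.0168, adjusted p = 0.133) and Pemt (-0.69, SE 0.318, unadjusted p = 0.0487, adjusted p = 0.224), with the same signs as in Fosl2(Tg) mice. Chpt1 gave 0.11 in WT mice. Whether the stage differences themselves differed between genotypes is the comparison left untested above. Pcyt1a, described without a test, gave a log2 stage difference of -0.05 (SE 0.0786) in WT and -0.20 (SE 0.0712) in Fosl2(Tg) mice.

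Around the 8 genes, 105 genes of 10 lists of related lipid metabolism were examined, and few passed the test in the established mice: 2 of the 98 tested were higher and 3 lower. At an unadjusted p under 0.05 there were 12 higher and 13 lower, their median log2 fold change was -0.04, and 4 of the 98 did not overlap between genotypes. These shares are near or below those of all genes given above. The lists were drawn up with earlier results of these data known.

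The 5 calls came from 4 of the lists. Ptdss1, which makes phosphatidylserine from phosphatidylcholine, fell from 62.1 ± 5.94 CPM in established WT (n = 6) to 47.6 ± 4.03 CPM in established Fosl2(Tg) (n = 7), with no overlap (log2 fold change -0.38, SE 0.0765, adjusted p = 0.0179, edgeR). Plpp1, a lipid phosphate phosphatase that makes diacylglycerol, fell from 83.4 ± 8.19 to 58.8 ± 11.3 CPM, with overlap (-0.50, SE 0.120, adjusted p = 0.0303, edgeR). Dgat1, which turns diacylglycerol into triacylglycerol, rose from 20.3 ± 1.32 to 25.9 ± 3.94 CPM (0.35, SE 0.0958, adjusted p = 0.0457, edgeR). Smpd3, the neutral sphingomyelinase that releases phosphocholine from sphingomyelin, rose from 3.22 ± 0.434 to 6.62 ± 3.48 CPM (1.06, SE 0.276, adjusted p = 0.0383, edgeR). Fasn, fatty acid synthase, fell from 206 ± 28.4 to 126 ± 29.9 CPM (-0.71, SE 0.165, adjusted p = 0.0276, edgeR). Dgat1, Smpd3 and Fasn did not overlap between the genotypes.

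Of these 5 calls, that of Ptdss1 held in all 13 fits that left out 1 mouse. Fasn kept its call in 8 of them and lost it without Fosl2(Tg) replicate 1 or 2 or WT replicate 1, 2 or 4, where its log2 value was between -0.72 and -0.63. Plpp1 kept its call in 7 and lost it without Fosl2(Tg) replicate 1 or 2 or WT replicate 2, 4, 5 or 6 (-0.50 to -0.45). Smpd3 kept its call only without Fosl2(Tg) replicate 4, 5, 6 or 7, and Dgat1 only without Fosl2(Tg) replicate 6 or 7; in the other fits Smpd3 gave 1.02 to 1.13 and Dgat1 0.28 to 0.37.

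In 6 of the lists no gene passed the edgeR test in the established mice, with 6 genes higher and 6 lower at an unadjusted p under 0.05. Of those named here, Tafazzin passed with DESeq2 and Pla2g5 in 7 of the 11 alternatives. The closest members of the pathway itself, Selenoi, Phospho1, Pcyt1b and Etnk2, had a median of -0.27, with Phospho1, a phosphatase of phosphocholine and phosphoethanolamine, at -0.70 (adjusted p = 0.260, with -0.22 without WT replicate 5 and -0.10 with limma voom) and Selenoi, the ethanolamine phosphotransferase, at 0.04 (adjusted p = 0.781). Of the choline transporters, Slc44a1 gave -0.11 (203 to 187 CPM) and Slc44a2 -0.10, and the 5 tested uptake genes had a median of 0.07. The 8 genes of the CDP-diacylglycerol branch, which leads to phosphatidylinositol and cardiolipin, had a median of 0.00, with Cds2 at 0.22 (adjusted p = 0.0940) and Tafazzin at 0.28 (adjusted p = 0.0725). Among the 9 acyl remodelling genes, Lpcat1 gave 0.01 and Lpgat1 0.05. Among the 19 breakdown genes, Pla2g5, a secreted phospholipase A2, was at 184 ± 22.6 CPM in WT and 92.4 ± 40.5 in Fosl2(Tg), with a log2 fold change of -0.99 that missed the threshold (adjusted p = 0.0526, edgeR), and Pld2 gave -0.06. In the 7 alternatives where it passed, DESeq2 and limma voom among them, the adjusted p of Pla2g5 reached down to 0.00443, and its log2 values over all 11 ran from -1.20 to -0.89. Without Fosl2(Tg) replicate 4 or 5 Pla2g5 passed as well (-1.14, adjusted p = 0.0343, and -0.83, adjusted p = 0.0206). Of the methyl donor genes, Mat2a gave -0.06. The 15 SREBP and lipogenic genes had a median of -0.20, with Fasn as the 1 gene called.

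**Figure D4:**
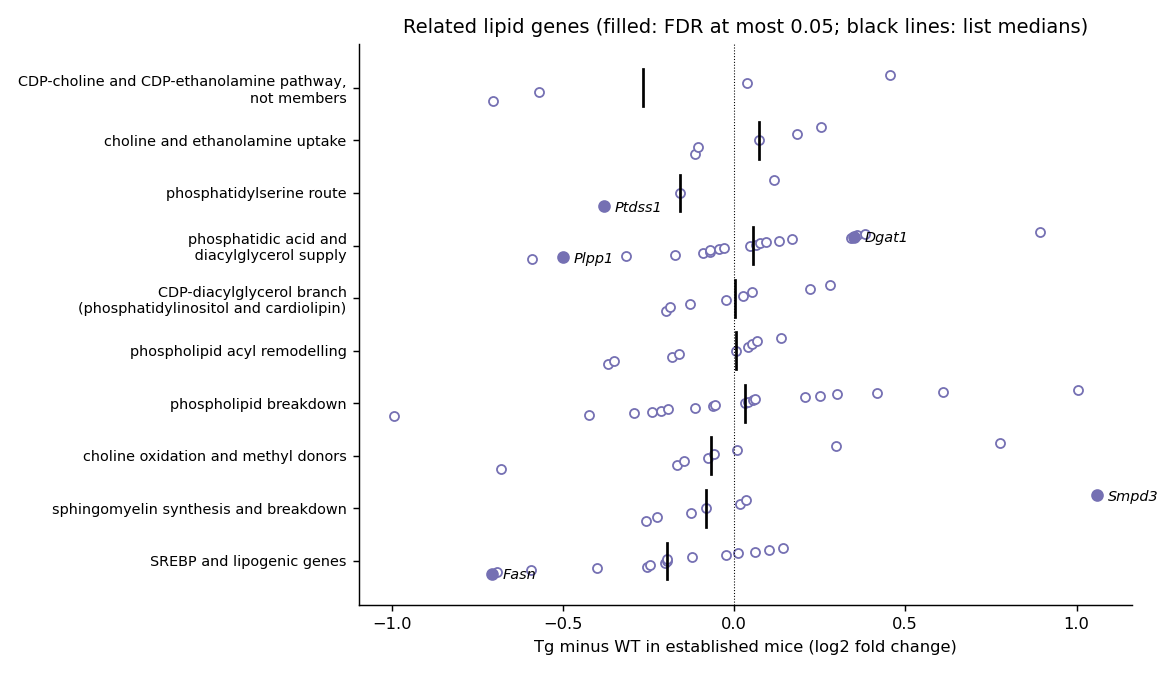
Log2 fold change, established Fosl2(Tg) over WT, of each tested gene in the 10 lists of related lipid genes, with list medians as lines and filled points for genes at an adjusted p of 0.05 or less. The 5 filled points are Ptdss1, Plpp1, Dgat1, Smpd3 and Fasn, and the list medians lie between -0.27 and 0.07.

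In the early mice none of the 96 tested list genes passed by edgeR, DESeq2 or limma voom, and 6 had an unadjusted p under 0.05 by edgeR. There the 5 genes named above gave log2 fold changes of 0.07 (Ptdss1), 0.27 (Plpp1), -0.10 (Dgat1), -0.42 (Smpd3) and 0.20 (Fasn), each opposite in sign to its established value. The early and established mice are different animals, and the change of sign was not tested. From the early to the established stage within Fosl2(Tg) mice, 17 of 97 list genes were higher and 31 lower, against 24.2% and 22.5% of all genes.

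Cell type markers differed between the established genotypes, and in bulk tissue fewer cells of a type cannot be told apart from less RNA per cell. The summed level of 8 tendon fibroblast markers spanned 99819 to 190276 CPM in established WT and 7000 to 79369 CPM in established Fosl2(Tg), without overlap, and 4 of the 8 (Scx, Tnmd, Col1a1 and Col1a2) passed the test as lower. This sum was highest in the early mice (191906 to 616314 CPM), and it does not give the level of each marker. Macrophage markers summed to 465 to 687 CPM in established WT and 585 to 930 CPM in established Fosl2(Tg), and 1 of 8 (Cd163) passed as higher. In the early mice the macrophage sum went the other way, with medians of 838 CPM in WT and 588 CPM in Fosl2(Tg). The part of these differences in the values of Pcyt1a and Chpt1 was not tested.

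Skeletal muscle markers varied most between mice of a group, from 64.4 to 17204 CPM in established WT and from 43.3 to 5586 CPM in established Fosl2(Tg), and 0 of the 10 passed by edgeR, with all 10 below 0 and 2 at an unadjusted p under 0.05. With the mean log2 level of these markers as a covariate, the log2 fold change of Pcyt1a was 0.44 (adjusted p = 0.00554) and that of Chpt1 -0.57 (adjusted p = 0.0117), by edgeR. In females alone the values were 0.41 (adjusted p = 0.0213) and -0.56 (adjusted p = 0.0347). Of the other marker lists, adipocyte, endothelial and keratinocyte markers had overlapping sums, as did erythroid (8.94 to 20.1 CPM in WT, 10.2 to 126 in Fosl2(Tg)) and Schwann cell markers (30.2 to 99.0 and 41.6 to 300 CPM), and no gene of these 5 lists passed by edgeR, with 4 at an unadjusted p under 0.05.

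Some members share exon bases with other genes, and without a stated strand setting reads over bases shared with the opposite strand could not be told apart. The 3' end of Pcyt1a shares 921 of its 8704 exon bases (10.6%) with Slc51a on the opposite strand, a transporter subunit for bile acids and steroids. Slc51a rose in the established mice as well, from 7.05 ± 1.38 CPM in WT to 10.4 ± 1.60 CPM in Fosl2(Tg), with overlap (log2 fold change 0.57, SE 0.142, adjusted p = 0.0324, edgeR), and it gave 0.40 (SE 0.112) in the early mice. The mean of Pcyt1a moved from 91.0 to 120 CPM between the same established groups. Chkb shares 1552 of 3203 exon bases (48.5%) with the read-through gene Gm44502 on its own strand, and with the counts of Gm44502 added its log2 fold change was -0.062, of the opposite sign. Chpt1 shares 7.30% of its exon bases with Sycp3, and Cept1 shares 7.73% with Dennd2d and 8.52% with Dram2, all on the opposite strand.

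Of all genes tested in the established mice, 3.14% were called higher and 3.37% lower. Among the 21 tested genes within 500 kb of Pcyt1a, 2 were higher and 1 lower in established Fosl2(Tg) mice, with log2 fold changes between -0.41 and 0.60 and a median of 0.03. These neighbours were examined after values had been seen. Besides Slc51a they were Dynlt2b, a dynein light chain gene just upstream of Pcyt1a (0.59, SE 0.132, adjusted p = 0.0232, edgeR), and Cep19, a centrosomal protein gene (-0.41, SE 0.0947, adjusted p = 0.0264, edgeR). In the early mice Dynlt2b gave 0.08 and Cep19 0.04. Dynlt2b lost its call without WT replicate 4 (0.56, adjusted p = 0.0546), Cep19 without Fosl2(Tg) replicate 2 or WT replicate 1 or 5 (-0.42 to -0.41), and Slc51a without Fosl2(Tg) replicate 1 or 2 or WT replicate 1, 2, 3, 4 or 5 (0.51 to 0.59). Among the 11 other alternatives, Cep19 and Slc51a each lost their call in 2, with the replicate block and in females only. Around Chpt1, 1 of 9 tested genes was lower, Arl1, a small GTPase of the Golgi (-0.53, SE 0.143, adjusted p = 0.0444, edgeR), and its call held in 3 of the 13 fits that left out 1 mouse, those without WT replicate 3 or Fosl2(Tg) replicate 6 or 7, with values between -0.58 and -0.37 over all 13, and in 8 of the 11 alternatives.

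**Figure D5:**
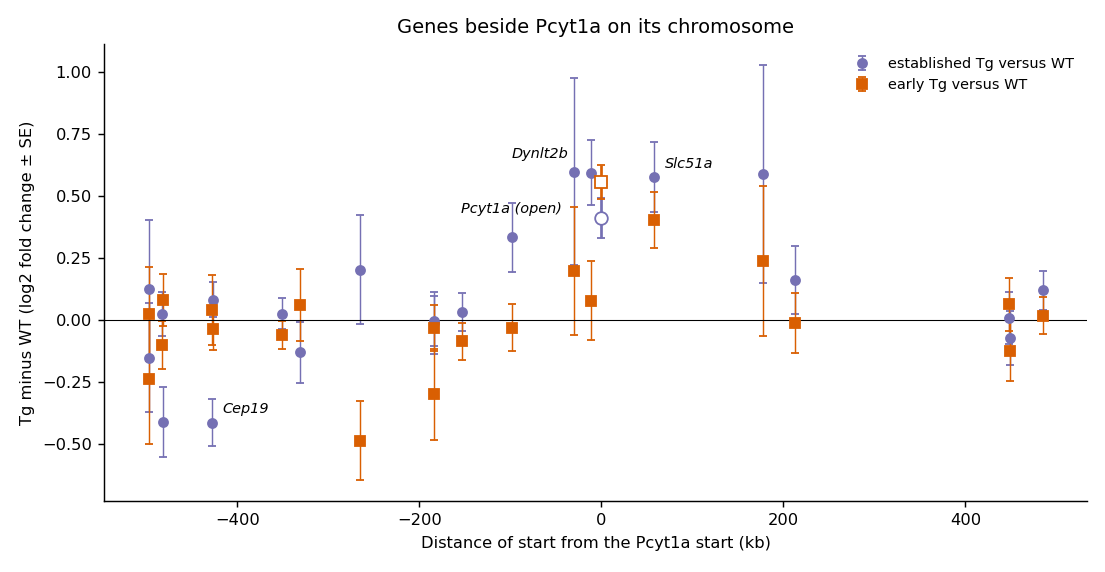
Log2 fold change ± SE, Fosl2(Tg) over WT, of the tested genes within 500 kb of Pcyt1a, in established (circles) and early (squares) mice. The distance in kb is from the Pcyt1a start, and open points mark Pcyt1a. In the established mice Dynlt2b and Slc51a, on either side of Pcyt1a, lie at 0.59 and 0.57, Cep19 at -0.41, and the median of the 21 neighbours is 0.03.

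Within groups, the mouse-to-mouse variation of Pcyt1a was unlike that of most of its pathway. After log2 CPM had been centred on each group's mean, the genes most like Pcyt1a over the 28 mice, of 14572 compared, were Ube2g2 (Spearman rho 0.881), a ubiquitin-conjugating enzyme, Psmd13 (0.848), a subunit of the proteasome lid, Got1 (0.819), the cytosolic aspartate aminotransferase, Lgalsl (0.817), a galectin-like protein, and Rcan1 (0.808), a regulator of calcineurin. Among the other 7 members, Pemt came closest (0.481, rank 1256), followed by Chpt1 (0.271) and Chka (0.160). Cept1 (-0.06), Etnk1 (-0.36), Pcyt2 (-0.46) and Chkb (-0.51) varied the other way or hardly with it. Centring by group leaves in the early split by replicate number described at the end. In the 13 established mice alone, rho with Pcyt1a was 0.725 for Pemt, 0.187 for Cept1, 0.154 for Chpt1 and -0.016 for Chka. It was -0.209 for Pcyt2, -0.593 for Etnk1 and -0.648 for Chkb. The highest values between other members were 0.636 for Chpt1 with Cept1 and 0.574 for Pcyt2 with Chkb. Of the marker scores, which share libraries and scaling with Pcyt1a, the endothelial score gave a rho of 0.548 with it, the skeletal muscle score 0.523 and the adipocyte score 0.396. The 7 adipocyte markers were near the detection limit, with sums from 0.353 CPM (established Fosl2(Tg)) to 15.1 CPM (early WT). The part of these scores in the likenesses was not tested.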

How the data were processed

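The authors extracted RNA from tail tendon fascicles, prepared ribosomal RNA-depleted libraries, sequenced them as paired-end reads of 150 bases, aligned them to GRCm39 with STAR and counted reads per gene with featureCounts. The deposited files hold raw counts per gene, not normalized, 1 file per mouse. The strand setting and the versions of STAR and featureCounts are not given in the sources used here.

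Counts were analysed in R 4.3.3 with edgeR 4.0.16 (filterByExpr with a minimum count of 10 and a minimum total of 15, TMM scaling, quasi-likelihood test, Benjamini-Hochberg FDR 0.05), 1 fit per pair of groups and no covariate. Intervals are 95% and use the moderated spread. CPM used TMM-adjusted library sizes from all 28 libraries together, and its log2 values had 2 added as prior count. Separations between mice are stated on this CPM. By total reads alone, Pcyt1a would overlap between the early genotypes and Chpt1 between the established ones. Early Pcyt1a had 1616 of 17782292 reads in Fosl2(Tg) replicate 3 and 3920 of 42646727 in WT replicate 6. Established Chpt1 had 483 of 11560533 in Fosl2(Tg) replicate 6 and 691 of 17394706 in WT replicate 1. DESeq2 1.42.0, limma 3.58.1, RLE scaling, other filters, covariates, a replicate block and leaving out each mouse served as alternatives. The test was tried on simulated counts. Figures used matplotlib 3.10.9. Of 25719 identifiers, 25505 were named from GENCODE M39. Every pair of mice within a group differed beyond sampling noise (lowest chi-square over degrees of freedom 7.42), so each library counted as 1 sample, and p-values measure the spread between these samples.

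The members, gene lists and comparisons were chosen with earlier results of these data known. The genes named were all 8 members, per related list the genes past the FDR threshold (at most 4 by lowest p) or otherwise the 2 with the highest mean CPM, and the 5 genes most like Pcyt1a among those with a mean of at least 1 CPM. One gene that this rule selects is not reported here. Pcyt1b and Etnk2 were named outside this rule, as were the neighbours. In the early mice, deviations of same-numbered WT and Fosl2(Tg) mice correlated at 0.129 to 0.363 for 7 pairs, with no stated litter or day. No early WT mouse correlated most with the Fosl2(Tg) mouse of its own number, so a pairing is not shown. In the established mice correlations ran from -0.223 to 0.688, and WT replicates 1 and 4 correlated most with their own number. The numbers were not taken as pairs.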

Additional observations from a re-analysis of the deposited data

Results flagged for a closer look

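Of the 32 combinations of 1 member and 1 group, 1 held a mouse that stood apart by Dixon's criterion at 95%. Chance flags about 1 in 20 such groups. It was Chpt1 in established WT replicate 6, at 54.3 CPM, against 41.3 CPM in the next highest of the 6 mice. The gap was 0.739 of the group's range, above the critical value of 0.625. Without this mouse the established log2 fold change of Chpt1 was -0.49 in place of -0.59.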

How the results depend on the processing

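Pcyt1a and Chpt1 passed the FDR threshold in the established mice under all 11 alternatives (log2 fold change 0.40 to 0.47 and -0.59 to -0.50) and in all 13 fits without 1 mouse (0.38 to 0.45 and -0.63 to -0.49). Of the 11 alternatives, 1 only adds the reads of Gm44502 to Chkb. For every other gene it repeats the main fit and is no check of its own. The number of the 8 members called was 2 or 3 throughout, with Chka or Pcyt2 as the added gene. With the replicate number as a block, the pairing not being shown at either stage, 2 members and 8 list genes were called, and Pcyt1a gave 0.42 (adjusted p = 0.0423). The count of list genes, 5 as reported, was 14 with DESeq2, 10 with limma voom, 11 with all 28 mice in 1 fit, 10 with the muscle covariate, 9 with sex as a covariate and 3 in females only, and 1 to 8 without 1 mouse. It was 1 without Fosl2(Tg) replicate 1 or 2 or WT replicate 2 or 4, 2 without WT replicate 1, 5 or 6, 3 without Fosl2(Tg) replicate 3 or WT replicate 3, and 8 without Fosl2(Tg) replicate 7. Dgat1 lost its call without the filter, with the block and in females only, and Plpp1 and Smpd3 in females only. The cause of these changes was not tested. Over all genes, the established calls (1032) were 2177 with DESeq2, 1984 with limma voom, 1663 with all 28 mice, 1695 with the muscle covariate and 560 in females only, and 361 to 1166 without 1 mouse. The early calls (6) were 25 with DESeq2, 11 with the block and 10 with limma voom, and 4 to 12 without 1 mouse. Among the members, signs turned only near 0. Chkb did so with Gm44502 added (-0.062), an alternative chosen after seeing the data. The WT stage difference of Etnk1 did so with established females only set against the early males (0.0014). Without 1 mouse, so did the stage differences of Cept1 (-0.16 to 0.013), Chkb (-0.010 to 0.10) and Etnk1 (-0.043 to 0.032) in WT and of Pcyt2 (-0.021 to 0.081) in Fosl2(Tg) mice. The early genotype differences of Pcyt2 (-0.074 to 0.10), Chpt1 (-0.069 to 0.11) and Chkb (-0.025 to 0.10) also ran across 0 over the alternatives. They did so without 1 mouse as well. Of the 5 genes most like Pcyt1a, 3 remained among the 5 highest by Pearson's r and 1 in the 13 established mice alone. Depth limits Pemt most, at 11 to 155 reads per library.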

Other observations

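In the early mice, libraries numbered 1 to 3 stood apart from those numbered 4 and up for some members, each in 1 genotype with overlapping ranges in the other, a split seen after the values were known. Pcyt2 spanned 15.3 to 20.5 CPM in WT replicates 1 to 3 and 12.4 to 16.4 CPM in the later WT replicates, and 18.9 to 21.4 against at most 14.1 CPM in Fosl2(Tg) mice. Chkb spanned 31.9 to 39.7 against 25.2 to 29.2 CPM in WT mice, with 33.03 to 35.8 against 26.2 to 33.1 CPM in Fosl2(Tg) mice. Chpt1 spanned 29.7 to 33.1 against 39.5 to 46.5 CPM in WT mice, with overlapping ranges in Fosl2(Tg) mice (31.4 to 37.8 and 32.6 to 45.6 CPM). Pemt spanned 1.25 to 1.89 against 2.85 to 4.34 CPM in WT mice, with 1.85 to 3.16 against 1.92 to 4.81 CPM in Fosl2(Tg) mice. Pcyt1a was higher in Fosl2(Tg) mice within both sets of numbers, at 122 to 134 against 84.96 to 95.8 CPM in numbers 1 to 3 and at 130 to 151 against 90.6 to 104 CPM in the others. Since Pcyt1a was chosen by its early difference, these values are a description and no check of it. The labels name no batch for these numbers.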
